A study of Mus musculus with 27 samples.

Results

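The E2f transcription factor family comprised 10 protein-coding genes, *E2f1* to *E2f8* and the partner genes *Tfdp1* and *Tfdp2*, of 22367 coding genes in the annotation. Its H3K4-methylated regions were chosen by position. They were all merged regions that touched the body of a member, or lay within 5 kb of an annotated transcription start site (TSS) of it. This rule found 84 of the 358833 merged regions, none of them counted for more than 1 member, and together they covered 151 kb. The family was chosen because *E2f2* had been singled out for lower H3K4me2 at its TSS in these same libraries. The state of *E2f2* is therefore a description here and no independent evidence, and because the choice of the family used the same calls, no test was made on any member.

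The regions came from chromatin immunoprecipitation and sequencing (ChIP-Seq) of whole E11.5 (embryonic day) hearts, from mice labelled C57BL/6. Control embryos were *Tnnt2::Cre; Kmt2d fl/+; mTmG/+* and mutant embryos were *Tnnt2::Cre; Kmt2d fl/fl; mTmG/+*, so that both genotypes carried Cre recombinase, the mTmG fluorescent Cre reporter and at least 1 floxed copy of *Kmt2d*. The *Tnnt2* promoter, that of cardiac troponin T, drives Cre in heart muscle cells. Controls thus lose 1 copy of *Kmt2d* in those cells and are not wild type, and the other cells of the heart, such as endocardial and epicardial cells, keep the gene in both genotypes. Each genotype had 3 pools of 30 hearts, and an input and the 3 marks H3K4me1, H3K4me2 and H3K4me3 were sequenced from each, which gave 24 heart libraries. In whole hearts, fewer cells that carry a mark and less of the mark per cell cannot be told apart.

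E2F proteins bind DNA at the promoters of genes for DNA replication and cell division, and most of them do so as a dimer with a DP protein, the product of *Tfdp1* or *Tfdp2*. In resting cells pocket proteins of the RB family bind E2Fs and hold their targets silent, and cyclin-dependent kinases release them as a cell enters S phase. The embryonic heart grows by division of its muscle cells, which largely leave the cell cycle after birth. KMT2D is a methyltransferase of histone H3 lysine 4. H3K4me1 lies mainly at enhancers, H3K4me2 at enhancers and promoters, and H3K4me3 at promoters.

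Merged regions that the authors called lower in mutant hearts stand in 2 decreased lists, for H3K4me1 and for H3K4me2. Each list holds positions only. No value per pool, fold change or error could be given for any region, the depth behind a call is unknown, and absence from a list does not show that a region was unchanged. All coordinates are 1-based on mouse assembly NCBIM37 (mm9), and genes are those of GENCODE vM1.

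The promoters of the family differed in their E2F sites and in their CpG content. The sequences around the E2F sites are shown because they are the elements through which an E2F could bind the promoter of a family member. The sites searched were TTTCCCGC, TTTGGCGC, TTTCGCGC and TTTGCCGC on both strands, with overlapping matches counted once, in the 300 bases from 250 before to 50 after the TSS at the 5′ end of each gene. Such a site was present at 4 of 10 members, *E2f1*, *E2f2*, *E2f7* and *Tfdp1*, and at 2.72% of the 22367 coding promoters. Each window is 30 bases long, is written 5′ to 3′ on the strand of the gene and has the matched site in capitals.
E2f1, chr2:154395606-154395635 (-): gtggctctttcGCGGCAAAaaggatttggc
E2f1, chr2:154395593-154395622 (-): ggcaaaaaggaTTTGGCGCgtaaaagtggc
E2f2, chr4:135728217-135728246 (+): gcggcatatagTTTGGCGCtaaaaaaaaaa
E2f7, chr10:110182286-110182315 (+): cccgcgtccccGCGGGAAAcgctcccgcgt
Tfdp1, chr8:13338697-13338726 (+): gggcgccgaagGCGCGAAAaggcgcgcagg

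*E2f1* held 2 of these sites, at 4 to 11 and 17 to 24 bases after its TSS. The site of *E2f2* began 81 bases before the TSS of GENCODE, those of *E2f7* and *Tfdp1* 198 and 43 bases before theirs. Of these 4 members only *E2f2* had its TSS region in the decreased H3K4me2 list, and among all coding genes with a region over a TSS the site was present at 4.48% of those with a TSS region in that list and at 3.32% of those without. Which promoters held a site depended on the start used. In the RefSeq promoter table (GRCm38.p6), which had entries for 8 of the 10 members, a site was found for *E2f2*, *E2f3*, *E2f7* and *Tfdp1*, not for *E2f1*, and at 2.26% of 32851 promoters. A match is a run of letters and does not show that the site is bound.

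The bases upstream of the start are shown for 2 members in the decreased H3K4me2 list, *E2f2* and *E2f3*, for 2 in neither list, *E2f7* and *Tfdp1*, and for the internal start of *Tfdp2*. Each is the 250 bases before the most upstream RefSeq start, taken from RefSeq (GRCm38.p6), placed on NCBIM37 by a single exact match and free of GENCODE exons, with CpG dinucleotides in capitals. At *Tfdp2* this start lies inside the longer GENCODE gene.
E2f2 upstream, chr4:135727939-135728188 (+): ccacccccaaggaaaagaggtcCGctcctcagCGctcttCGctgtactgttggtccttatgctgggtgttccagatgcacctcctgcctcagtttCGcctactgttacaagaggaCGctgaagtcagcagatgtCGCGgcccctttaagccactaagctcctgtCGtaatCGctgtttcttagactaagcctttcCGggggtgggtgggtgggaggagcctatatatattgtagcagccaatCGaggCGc
E2f3 upstream, chr13:30077933-30078182 (-): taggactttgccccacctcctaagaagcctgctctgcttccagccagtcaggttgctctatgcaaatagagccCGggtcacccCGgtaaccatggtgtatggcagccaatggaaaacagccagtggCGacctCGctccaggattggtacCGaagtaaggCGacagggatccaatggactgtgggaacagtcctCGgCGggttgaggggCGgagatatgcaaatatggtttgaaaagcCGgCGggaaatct
E2f7 upstream, chr10:110182245-110182494 (+): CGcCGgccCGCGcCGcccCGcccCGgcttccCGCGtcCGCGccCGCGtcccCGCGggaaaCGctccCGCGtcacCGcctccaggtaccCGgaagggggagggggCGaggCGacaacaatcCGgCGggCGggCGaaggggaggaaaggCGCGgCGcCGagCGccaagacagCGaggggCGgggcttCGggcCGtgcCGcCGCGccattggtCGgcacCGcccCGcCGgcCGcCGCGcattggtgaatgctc
Tfdp1 upstream, chr8:13338501-13338750 (+): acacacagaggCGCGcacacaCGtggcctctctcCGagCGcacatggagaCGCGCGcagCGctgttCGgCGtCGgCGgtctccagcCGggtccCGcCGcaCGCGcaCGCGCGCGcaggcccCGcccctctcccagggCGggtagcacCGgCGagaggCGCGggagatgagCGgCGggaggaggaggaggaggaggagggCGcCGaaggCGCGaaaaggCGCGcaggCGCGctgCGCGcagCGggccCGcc
Tfdp2 internal start upstream, chr9:96158874-96159123 (+): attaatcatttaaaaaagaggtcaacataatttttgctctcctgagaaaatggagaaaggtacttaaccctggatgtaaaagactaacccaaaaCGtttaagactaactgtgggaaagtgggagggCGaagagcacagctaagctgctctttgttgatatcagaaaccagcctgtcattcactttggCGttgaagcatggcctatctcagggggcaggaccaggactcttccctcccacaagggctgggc

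*E2f2* held 12 CpG in these bases and *E2f3* 11, against 45 for *E2f7* and 42 for *Tfdp1*. The other listed members with such a sequence lay between, *E2f6* with 24 and *E2f8* with 25. The internal start of *Tfdp2* held 3. *E2f1*, in neither list, held 43, in bases that GENCODE counts as exon. The windows did not lie at matched places. Those of *E2f6*, *E2f7*, *E2f8* and *Tfdp1* ended next to the 5′ TSS of GENCODE, and those of *E2f2* and *E2f3* ended further upstream. These counts are therefore not like for like. All 5 sequences shown lie inside a merged region. In the 1 kb around the 5′ TSS, the 6 listed members held from 83 CpG, at *E2f2* and *E2f6*, to 96 at *E2f5*. Of the unlisted members, *E2f7* held 115, *E2f1* 121 and *Tfdp1* 131, all above the listed ones, and *E2f4* held 62, below them. Relative to base composition the groups overlapped. In the same 1 kb the observed over expected CpG ratio was 0.95 for *E2f2* and 0.84 for *E2f3*, against 0.91 for *E2f7* and 0.96 for *Tfdp1*. Over the 10 members this ratio ran from 0.74 at *E2f4* to 0.96 at *E2f5* and *Tfdp1*. Coding genes with a TSS region had a median ratio of 0.69. The median was 0.78 for those with a TSS region in the decreased H3K4me2 list and 0.65 for those without. Across coding genes, listed promoters thus had the higher CpG ratio.

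Of the 84 regions, 8 were in the decreased H3K4me2 list, which is 9.52%, and 1 was in the decreased H3K4me1 list, which is 1.19%. None was in both. Over all merged regions 1.87% were in the H3K4me2 list and 0.761% in the H3K4me1 list, and over the merged regions of coding genes, found by the same rule, 2.69% and 0.935%. The decreased H3K4me2 regions of the family lay mostly at the TSS, as they did over coding genes. Of the 11 regions over a TSS of their member, 7 were in the H3K4me2 list and 0 in the H3K4me1 list. Of the 73 regions with no TSS of their member, 1 was in the H3K4me2 list and 1 in the H3K4me1 list. By whether a region held any annotated TSS, the H3K4me2 list took 7 of 12 regions of the family with one and 1 of 72 without. Over the regions of coding genes it took 21.8% and 0.674%.

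Every member had a region over its 5′ TSS, and 6 of 10 members had a TSS region in the decreased H3K4me2 list. These were *E2f2*, *E2f3*, *E2f5*, *E2f6*, *E2f8* and *Tfdp2*, and for each of them the region over the 5′ TSS was listed. Of the coding genes with a TSS region, 29.2% had one in that list, and 28.7% of coding genes with any region had one listed anywhere. The 4 members outside the list were *E2f1*, *E2f4*, *E2f7* and *Tfdp1*. No member had a TSS region in the decreased H3K4me1 list, where 1.29% of coding genes had one. *E2f2* was the single member with a decreased H3K4me1 region anywhere, against 7.08% of coding genes. The 2 lists thus met at 1 gene of the family, at different regions of it.

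**Figure D1:**
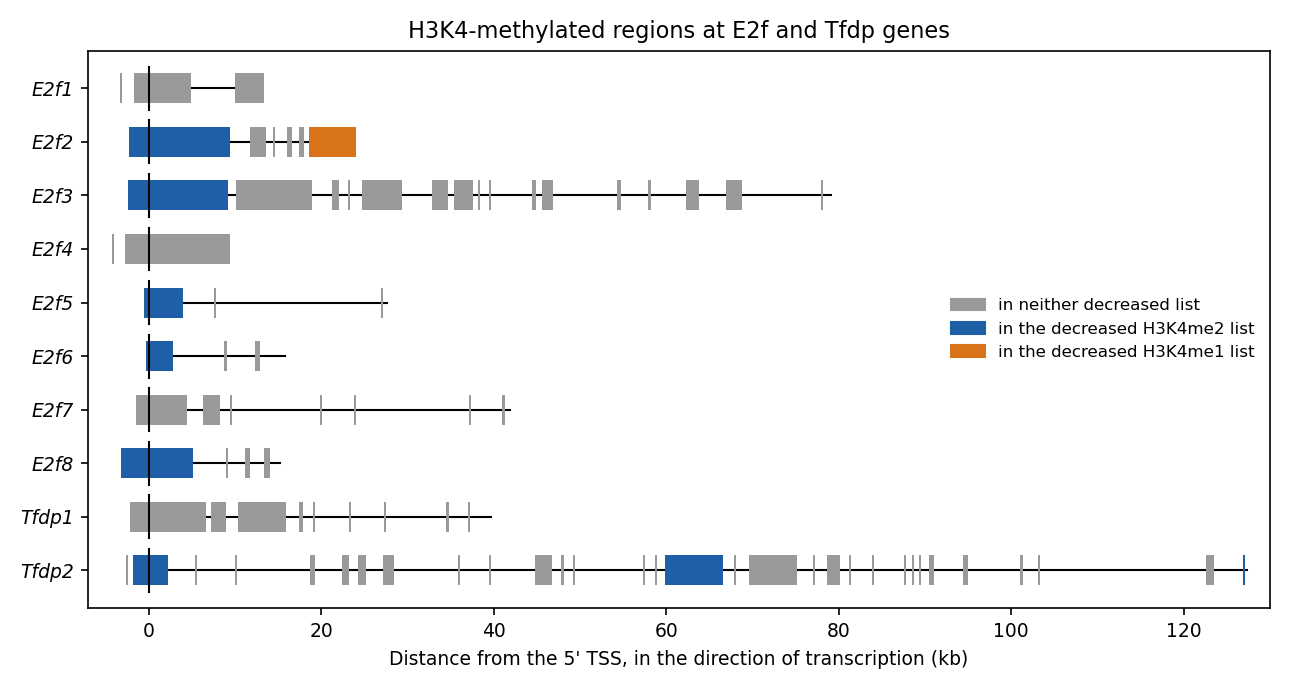
Merged regions along the 10 E2f and Tfdp genes, each drawn from its 5′ TSS (short vertical line at 0) in the direction of transcription, with distance in kb on the x axis and the gene body as a thin line. Blue regions were in the decreased H3K4me2 list, orange in the decreased H3K4me1 list and grey in neither, and regions too narrow to see are drawn at a minimum width. Blue lies over the start of 6 genes and also inside and near the end of *Tfdp2*, and the single orange region is at the 3′ end of *E2f2*.

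*E2f1*, *E2f2* and *E2f3* encode the activating E2Fs, which are bound by RB and switch on S phase genes when released. Of these 3 genes, 2 had a TSS region in the H3K4me2 list. *E2f2* lies on the plus strand at chr4:135728309-135751972. Its TSS region, chr4:135725986-135737685, was 11700 bp wide, ran from 2323 bp before to 9376 bp after the TSS, held all 3 annotated starts of the gene and was in the decreased H3K4me2 list. It covered 1273 bp of exon, the rest of its gene part being intron. Downstream of it lay 4 narrower regions of 1900, 80, 560 and 560 bp, all inside the gene and in neither list.

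The last region of *E2f2*, chr4:135746906-135752325, was 5420 bp wide and was in the decreased H3K4me1 list. It began 18.6 kb after the 5′ TSS and ran past the end of the gene. Exons made up 3301 bp of it, 3023 bp of these untranslated, and it held no annotated TSS. The listed regions at the start and at the end of *E2f2* took 57.9% and 26.8% of its covered bases, and the merged regions together covered 74.1% of its body. Its H3K4me1 region was the nearest listed one to its TSS. For the other 9 members the nearest decreased H3K4me1 region lay from 57.1 kb away at *E2f6* to 4661 kb away at *E2f5*, and the median over coding genes was 315 kb.

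*E2f3*, on the minus strand at chr13:29998444-30077537, resembled *E2f2* at its start and not further along. Its TSS region, chr13:30068306-30079905, was 11600 bp wide, ran from 2368 bp before to 9231 bp after the TSS and was in the decreased H3K4me2 list. The next region, which began less than 1 kb beyond it, was 8780 bp wide, wholly intronic and in neither list. *E2f3* had 16 regions, and the other 15 were in neither list, so that 31.8% of its covered bases were listed. Its nearest decreased H3K4me1 region was 266 kb upstream.

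*E2f1*, on the minus strand at chr2:154385143-154395628, had neither mark listed. Its TSS region, chr2:154390746-154397305, was 6560 bp wide and ran from 1677 bp before to 4882 bp after the TSS, with all 3 annotated starts inside. A region of 3360 bp over the 3′ end of the gene also held the TSS of *Necab3*, the neighbouring gene, and was in neither list. The nearest decreased H3K4me2 region to the TSS of *E2f1* was 42 kb upstream, at *Zfp341*. The activating E2Fs thus differed in their calls, and also in the width of their TSS regions, those of *E2f2* and *E2f3* being the wider.

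*E2f4* and *E2f5* encode E2Fs that act mainly as repressors together with the pocket proteins p107 and p130. The gene in the list was the one with the narrower region. *E2f5*, at chr3:14578671-14606308, had a TSS region of 4540 bp, chr3:14578146-14582685, in the decreased H3K4me2 list, and only 2 further regions, of 100 and 60 bp. The listed region held 96.6% of its covered bases. It ran only 525 bp upstream of the TSS.

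*E2f4*, at chr8:107821563-107829269, had the widest TSS region of the family, 12120 bp at chr8:107818806-107830925, and it was in neither list. It extended 2757 bp before and 9362 bp after the TSS, close to the extents at *E2f2*, but *E2f4* is a short gene and the region covered 100% of its body. It also held TSSs of the neighbouring genes *Elmo3* and *Exoc3l*, so that its methylation cannot be assigned to *E2f4* alone. The nearest decreased H3K4me2 region was 26.4 kb upstream, at *Fbxl8* and *Hsf4*.

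*E2f6* encodes a repressor that does not bind pocket proteins and works with Polycomb group proteins. At chr12:16817771-16833549, it had the narrowest TSS region of the family, 3120 bp at chr12:16817406-16820525, which ran from 365 bp before to 2754 bp after the TSS and was in the decreased H3K4me2 list. The 2 other regions of *E2f6*, of 340 and 620 bp, were in neither list. The listed region held 76.5% of its covered bases.

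*E2f7* and *E2f8* encode the atypical E2Fs, which bind DNA without a DP partner and repress E2F targets late in S phase. They differed in their calls. *E2f8*, on the minus strand at chr7:56121799-56136966, had a TSS region of 8340 bp, chr7:56131866-56140205, in the decreased H3K4me2 list, and it held 86.2% of the covered bases of the gene. It reached 3239 bp upstream of the TSS, the longest upstream extent of the family, and there it also held the TSS of the noncoding RNA gene *Gm2788*.

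*E2f7*, at chr10:110182495-110224440, had a TSS region of 5900 bp, chr10:110181046-110186945, in neither list. It held 5 of the 8 annotated TSS positions of the gene, and the other 3 lay in no region. A region of 2000 bp in the gene was also in neither list. *E2f7* lay far from any listed H3K4me2 region, the nearest being 259 kb downstream at *Zdhhc17*, whereas the median distance over coding genes was 65.7 kb.

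*Tfdp1* and *Tfdp2* encode the DP proteins that pair with E2F1 to E2F6. *Tfdp1*, at chr8:13338751-13378395, had 9 regions and none in a list. Its TSS region, chr8:13336626-13345325, was 8700 bp wide and ran from 2125 bp before to 6574 bp after the TSS, and 2 more regions of 1700 and 5580 bp followed it. The nearest decreased regions lay upstream, 49 kb away for H3K4me2 at *Dcun1d2* and *Tmco3* and 92.4 kb away for H3K4me1 at *Adprhl1*.

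*Tfdp2*, at chr9:96096694-96224065, is the longest gene of the family and had the most regions, 31, of which 3 were in the decreased H3K4me2 list. The first, chr9:96094846-96098945, was 4100 bp wide over the 5′ TSS. The second, chr9:96156566-96163305, was 6740 bp wide, began 59.9 kb into the gene and held an internal TSS. The third was a region of 160 bp at chr9:96223606-96223765, wholly inside the 3′ untranslated exon, and it was the single H3K4me2 entry of the family away from a TSS of its member. *Tfdp2* was the single member with TSS regions at separate places, and both were listed.

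**Figure D2:**
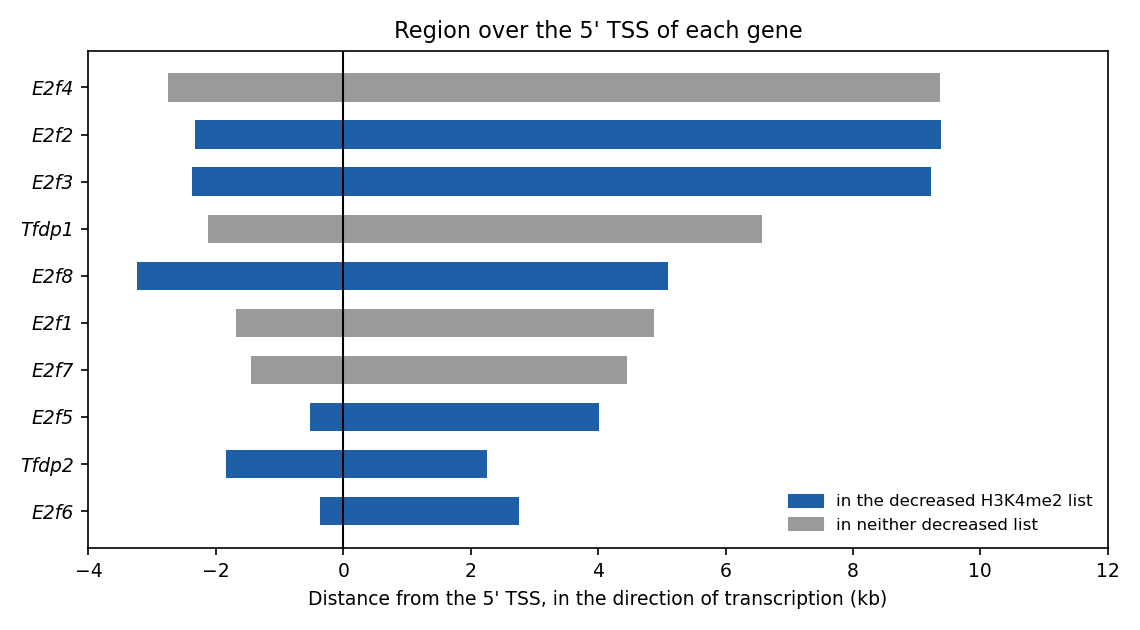
The merged region over the 5′ TSS of each member, as distance from that TSS in kb, ordered by width, in blue where it was in the decreased H3K4me2 list and in grey where it was in neither list. *E2f4*, *E2f2* and *E2f3* have nearly the same extent, and blue and grey bars are mixed from the narrowest region, 3120 bp at *E2f6*, to the widest, 12120 bp at *E2f4*.

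Region width moves with the H3K4me2 calls across the genome, and the members were read against it. Over coding genes, the widest TSS region was in the list at 1.78% of genes where it was under 1000 bp and at 42.8% where it was 8000 bp or more. The TSS regions of the family were wide, with a median of 7540 bp against 3720 bp over the 15752 coding genes with such a region. *E2f4*, *E2f2* and *E2f3* were wider than 94.7%, 94.3% and 94.1% of those genes, and *E2f6* than 39.1%. In the class of 8000 bp or more, 3 of 5 members were listed. From 4000 bp to under 8000 bp, where 34.9% of coding genes were listed, 2 of 4 members were. From 2000 bp to under 4000 bp, where 26.3% were, the 1 member was *E2f6*, and it was listed. With so few members in a class no test was made, and the part of width in the calls was not tested.

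Within the family, width did not separate the calls. The 6 listed members had TSS regions from 3120 to 11700 bp with a median of 7540 bp, and the 4 others from 5900 to 12120 bp with a median of 7630 bp. Across coding genes the medians were 4680 bp for listed and 3360 bp for unlisted genes.

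**Figure D3:**
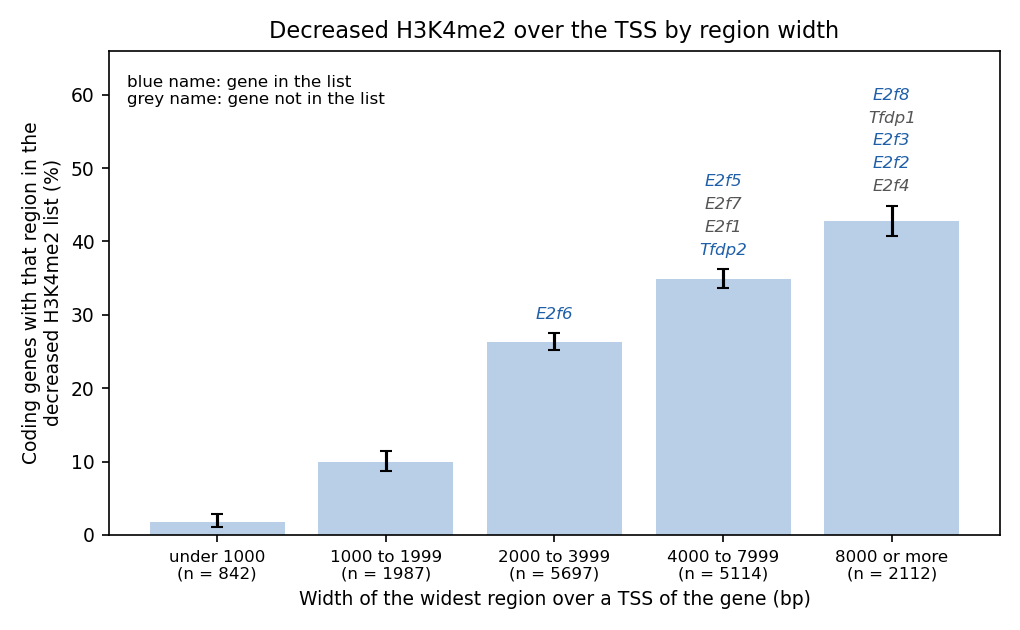
Percent of coding genes whose widest TSS region was in the decreased H3K4me2 list (y axis), by width of that region in bp (x axis, with the number of genes in each class). Error bars are 95% Wilson intervals over genes, which cover counting error only, and member names stand above their class in blue where listed and grey where not. The share climbs from 1.78% to 42.8%, and the 2 widest classes hold members of both kinds.

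Away from a TSS, wide regions were seldom in the H3K4me2 list, in the family or elsewhere. Of the 19 regions of the family of 2000 bp or more, 7 were in the H3K4me2 list, each over a TSS of its member. Of the 7 regions of that width with no annotated TSS inside, 0 were in the H3K4me2 list and 1, at *E2f2*, was in the H3K4me1 list. Among 16809 regions of coding genes of that width with no annotated TSS inside, 1.82% were in the H3K4me2 list and 4.62% in the H3K4me1 list. That H3K4me1 share was above the 1.27% of coding gene regions with an annotated TSS inside. It was also above the 0.899% of those with none, of any width. Of the 44 regions of the family under 500 bp, 1 was in either list, the narrow region of *Tfdp2*, and over coding genes 0.935% of regions under that width were.

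The base composition of the listed regions was not uniform. The region over the 5′ TSS of *E2f5* had an observed over expected CpG ratio of 0.64, that of *E2f6* 0.57 and that of *Tfdp2* 0.54. The region of *E2f2* had 0.36, and the one at the internal TSS of *Tfdp2* 0.21, with a GC content of 37.7%. Among unlisted TSS regions the ratio ran from 0.28 at *E2f4* to 0.53 at *E2f7*. The decreased H3K4me1 region of *E2f2* had a ratio of 0.28. Listed and unlisted TSS regions therefore overlapped in CpG content.

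**Figure D4:**
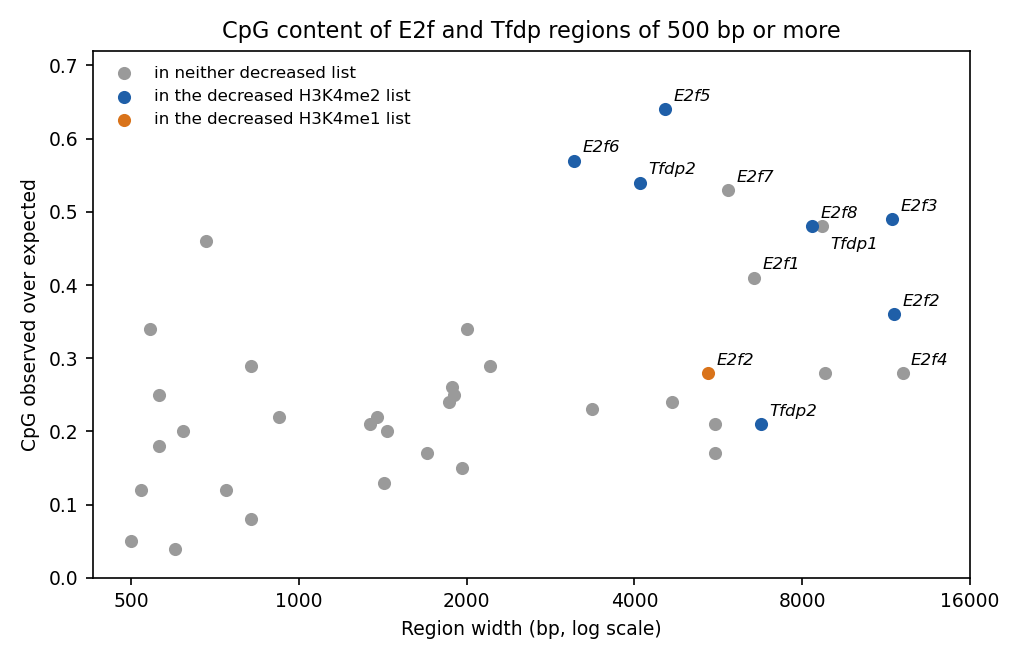
Observed over expected CpG ratio (y axis) against width in bp (x axis, log scale) for the regions of the family of 500 bp or more, 1 point a region, coloured by decreased list. Names mark listed regions and the widest TSS region of each member. Regions over a 5′ TSS lie mostly above the others, and the internal TSS region of *Tfdp2*, at 0.21, lies among the regions without a TSS.

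The genes that act around the E2Fs were read from 5 lists with 42 genes, of which 41 had a TSS region and 19 had one in the decreased H3K4me2 list, against the 29.2% of coding genes given above. Over these lists the widest TSS region had a median of 4980 bp, against 3720 bp over coding genes. The part of width in this count was not tested. None of the 42 had a decreased H3K4me1 region, against 7.08% of coding genes with any region. The pocket proteins bind and restrain E2Fs, and 2 of 3 were listed. They were *Rb1*, with a TSS region of 3480 bp, and *Rbl2*, which encodes p130, with 3280 bp. *Rbl1*, which encodes p107, was not listed. The MuvB core joins E2F4 or B-Myb and pocket proteins on cell cycle promoters, and 3 of 6 genes were listed, *Lin9*, *Lin37* and *Lin52*.

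The G1/S cyclins and their kinases release E2Fs from pocket proteins, and 3 of 9 genes were listed. *Ccnd2* and *Ccnd3*, for D-type cyclins, had listed TSS regions of 10980 and 10920 bp, and *Ccne1*, for cyclin E1 and itself an E2F target, one of 5940 bp. None of the kinase genes *Cdk2*, *Cdk4* and *Cdk6* was listed. Of the CDK inhibitors, 1 of 6 genes with a TSS region was listed, *Cdkn1b*, which encodes p27, with 12660 bp. *Cdkn2d* had no TSS region.

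Of the S phase targets of E2F, the longest list, 10 of 17 were listed. They were *Mcm7*, a subunit of the replicative helicase, *Pcna*, the sliding clamp of DNA polymerase, *Cdc6*, *Orc1* and *Gmnn*, which act in replication licensing, *Rrm1*, *Rrm2* and *Tk1*, which supply deoxynucleotides, *Pola1*, a subunit of DNA polymerase alpha, and *Cdc25a*, a phosphatase that activates cyclin-dependent kinases. Their listed TSS regions ran from 3380 bp at *Pola1* to 13820 bp at *Rrm2*. Of the 6 helicase genes *Mcm2* to *Mcm7* only *Mcm7* was listed, and *Mcm2*, with the widest TSS region of all lists at 14180 bp, was not.

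**Figure D5:**
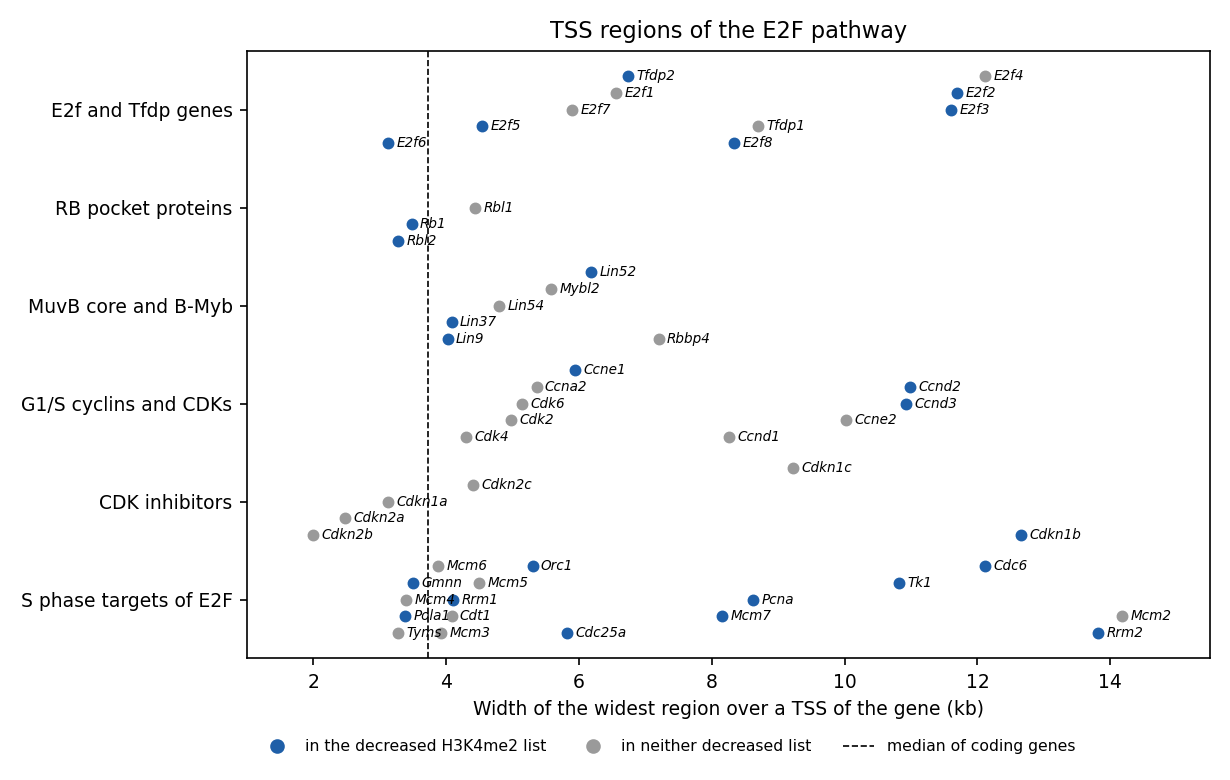
Width of the widest TSS region in kb (x axis) of each member and of each gene of the 5 pathway lists that has one, in blue where that region was in the decreased H3K4me2 list and in grey where it was in neither list. Points are spread vertically within a row for legibility only, and the dashed line is the median of coding genes, 3720 bp. Listed genes are found in every row, and in each row with more than 3 genes the widths of listed and unlisted genes overlap, except among the CDK inhibitors, where the single listed gene, *Cdkn1b*, is also the widest.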

How the data were processed

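The series held 27 libraries, 6 of them input DNA, of 9 groups, with 3 libraries a group, taken from the sample titles. The KMT2D ChIP-Exo libraries and changes of H3K4me3 were not analysed here. The authors deposited 3 lists of regions, with a chromosome, a start and an end each, pooled over replicates: regions of H3K4me1, H3K4me2 or H3K4me3 merged into 1 list, and regions with decreased H3K4me1 or H3K4me2. The submitters' processing notes name CASAVA 1.8.2, FastQC, Bowtie, Bowtie2, SAMtools and build mm9. The lists carry no threshold of their own. The H3K4me2 list held 6699 regions, more than the paper reports at its false discovery rate threshold. A listed H3K4me2 region may thus lie outside the set the paper reports. The H3K4me1 list held 2730, the number the paper reports. The peak caller and the test behind the decreased lists are not given in the sources used here. Each decreased region had an identical merged region, and that match decided list membership. Region edges lay on a grid of 20 bp, merged regions were at least 60 bp wide and lay at least 620 bp apart, so widths depend on how neighbouring peaks were merged.

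Regions were matched to GENCODE vM1 genes on NCBIM37 by an overlap of at least 1 bp, with Python 3.11.15 and numpy 2.4.6. The TSS region was the widest merged region that holds an annotated TSS of the gene. The overlap functions were checked on simulated regions against a direct count. Members and pathway lists were chosen with earlier results of these data known. Genes named are all members, listed pathway genes, other genes with a TSS in a region of a member, the genes at the nearest decreased region, and the 5 coding genes most like *E2f2*: a TSS region in the H3K4me2 list only, another region in the H3K4me1 list, ordered by closeness of TSS region width. Of the pathway genes chosen, 1 is not reported here, and the counts leave it out. The genes at the nearest decreased regions, *Necab3* and the unlisted pathway genes were named after their values were seen.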

Additional observations from a re-analysis of the deposited data

How the results depend on the processing

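Of 72 alternative values over 18 results, 10 moved and 62 did not, where a width moved if it changed at all, a count if it changed by over 1.5 times, and a share if it left the 95% Wilson interval of the value given (4.91% to 17.7% for H3K4me2, 0.21% to 6.44% for H3K4me1). None reversed. With TSS windows only, the family had 26 regions, the H3K4me2 share was 26.9%, and the H3K4me1 share and the members with an H3K4me1 region were both 0, since the H3K4me1 region of *E2f2* lies 18.6 kb from its TSS. With regions of at least 500 bp, 40 remained, and the shares were 17.5% for H3K4me2 and 2.5% for H3K4me1, against 9.52% and 1.19%. Over base pairs they were 33.2% and 3.58%. Shares over coding genes under these settings are not given, so these values cannot be set against the 2.69% and 0.935% of the main rule. For regions that hold an annotated TSS, a narrower rule than TSS windows, the H3K4me2 share was 58.3% in the family and 21.8% over coding genes. The median TSS region width was 7450 bp with the 5′ TSS only, where *Tfdp2* had 4100 bp. Joining regions less than 1 kb apart gave *E2f3* 21300 bp and *Tfdp1* 11020 bp. The number of members with a listed H3K4me2 region was 6 under each alternative run. It could not change, since each of the 6 has a listed region of at least 3120 bp over its 5′ TSS. Such values are among the 62 and are no evidence of stability. Leaving out a replicate was not run, since the lists are pooled. No paired analysis was possible because the lists hold no value per replicate. Depth is unknown, and it limits which regions could be called.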

Other observations

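*E2f2* was 1 of 301 coding genes with the same pair of calls. Such genes had a widest TSS region in the decreased H3K4me2 list only, and another region in the decreased H3K4me1 list at any place. These were 6.87% of the 4380 coding genes whose widest TSS region was in the H3K4me2 list only. Among the 11352 genes whose widest TSS region was not in the H3K4me2 list, 8.2% had another region in the H3K4me1 list. The widest such H3K4me1 region lay over the end of the gene, as at *E2f2*, in 18 of the 301, which is 5.98%. The same share over other coding genes is not given, so this value cannot be called high or low.

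The genes closest to *E2f2* in TSS region width were *Aff1*, *Jph2*, *Gnb1*, *Bcl11a* and *Ube2h*, with 11560, 11860, 11900, 11340 and 11300 bp. *Aff1* encodes a scaffold of the super elongation complex, and its H3K4me1 region, of 12660 bp, began 42.6 kb after the 5′ TSS. Unlike at *E2f2*, the listed TSS region of *Aff1* lay over an annotated start other than the 5′ TSS. This distance therefore does not give the gap between its listed regions. *Jph2* encodes junctophilin 2, which ties the plasma membrane to the sarcoplasmic reticulum in heart muscle, and it had 3 decreased H3K4me1 regions, the widest of 20560 bp. *Bcl11a*, a transcription factor gene best known from blood cells, also had 3, the widest of which was 4940 bp wide and began 20.6 kb after the TSS. At *Ube2h*, for a ubiquitin-conjugating enzyme, the region was 2280 bp wide, and at *Gnb1*, for a G protein beta subunit, only 80 bp. In none of these 5 genes did the widest H3K4me1 region hold the end of the gene.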
